A study of Mus musculus with 4 samples.

Results

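The genes described are 10 components of bone morphogenetic protein (BMP) signalling, chosen by symbol from the 32285 genes of the deposited count matrices: the ligands Bmp2, Bmp4, Bmp5, Bmp7 and Gdf6, the extracellular regulators Nog and Bmper, the pseudoreceptor Bambi, and the inhibitory SMADs Smad6 and Smad7. All 10 were present in each of the 4 matrices. The cells came from Swiss-Webster mice, collected at E10.5 when embryos had 34 to 36 somites. All embryos carried Pax2-Cre and the reporter allele Rosa26-GFPf/+, which together mark the Cre lineage with GFP. By their labels controls carried no floxed Tbx allele, whereas the conditional knockout (cKO) was also Tbx2f/f and Tbx3f/f, with floxed alleles of these T-box repressor genes on both copies. Each genotype had 2 libraries, from 3 control and 2 cKO embryos. Otic vesicles with the cochleovestibular ganglion and neighbouring neural tube and pharyngeal tissue were dissected, pooled, dissociated and sorted for GFP, so the cells are the Pax2-Cre lineage of this region and not the otic vesicle alone. How embryos were divided among libraries is not given in the sources used here, and p-values measure the spread between libraries, which may be technical.

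BMP ligands are secreted dimers that bring type I and type II receptor kinases together. The receptors phosphorylate SMAD1, SMAD5 and SMAD9, which enter the nucleus with SMAD4 and switch on targets such as the Id and Msx genes and, as feedback, the inhibitors Smad6, Smad7 and Bambi. In the developing inner ear, Bmp4 marks prospective sensory organs, and a balance of BMPs and their antagonists, among them noggin, shapes the semicircular canals.

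Promoter sequence was held in the reference for 4 of the 10 genes, and for 2 of them, the ligand Bmp4 and the feedback inhibitor Smad6, it is shown here because a ligand and an inhibitor of its signal fell together in the otic cells described below. Both are the 250 bases before the RefSeq start in build GRCm38.p6, written 5′ to 3′ on the gene's own strand, Bmp4 from chr14:46390670-46390919 and Smad6 from chr9:64022060-64022309, each on the minus strand. Capitals mark GTCT or its reverse complement AGAC, the short SMAD half-site.
Bmp4: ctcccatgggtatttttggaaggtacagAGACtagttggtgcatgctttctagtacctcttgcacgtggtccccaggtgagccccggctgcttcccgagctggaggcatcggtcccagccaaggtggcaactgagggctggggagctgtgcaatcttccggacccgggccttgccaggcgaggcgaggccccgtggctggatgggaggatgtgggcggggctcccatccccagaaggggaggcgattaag
Smad6: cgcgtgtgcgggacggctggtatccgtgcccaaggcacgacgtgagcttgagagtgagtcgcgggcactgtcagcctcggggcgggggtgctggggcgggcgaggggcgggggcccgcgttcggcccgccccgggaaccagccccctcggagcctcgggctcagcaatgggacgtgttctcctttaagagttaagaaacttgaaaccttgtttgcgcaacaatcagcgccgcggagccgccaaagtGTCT
Each sequence held 1 match to GTCT. Such a match was found in 83.0% of the 27025 promoter windows of this length. Neither sequence held the GC-rich SMAD element GGCGCC, which was present in 9.54% of windows, or the T-box half-site GGTGTGA (reverse complement TCACACC), present in 3.31%. Windows for Bmper and Bmp5 held 2 matches and 1 match to GTCT and neither of the other motifs.

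The libraries held 106769747 to 128205192 unique molecular identifiers (UMIs), and 3220 to 3869 cells per library were kept, 14399 in all. Cells were grouped into classes by clustering without the 10 genes and without other BMP pathway genes, and each class is named for its resemblance to marker genes. The otic markers used for naming include Dlx5, which is also counted among the BMP target genes below. Tbx2 and Tbx3 themselves were read in the otic class of every library, Tbx2 at 93.4 and 101.9 CPM (UMIs per 1e6 of the class's UMIs) in controls against 69.1 and 67.6 in the cKO, and Tbx3 at 68.4 and 66.8 against 22.6 and 17.8. Whether these 3′ tags lie within the deleted exons is not given in the sources used here, so transcripts that persist do not check the deletion. Mitochondrial UMIs took a median of 2.30% and 2.88% per otic cell in controls but 1.20% and 1.27% in the cKO, and the part of this difference in the results was not tested. Pairs of libraries shared 2 to 8 cell barcodes, of which 1 to 5 were kept in both.

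The first question was where the 10 genes were expressed in control embryos. Levels are given as CPM per library, as a description without a test, and are compared between classes and not between genes. The order covers the 8 classes with at least 20 cells in every library. It leaves out endothelium-like cells, of which control 2 had only 19, although their Bmp4 was at 99.5 CPM and their Bambi at 127.9 CPM in the 37 cells of control 1, the latter above every class mean in the order. Among the 8 classes, Bmp4 was highest in ectoderm-like cells, at 206.6 CPM in control 1 and 83.2 in control 2, the latter from only 49 cells. The otic class followed, with a mean of 47.5 ± 0.594 CPM (SD, n = 2), and then the mesenchyme-like class with 16.1 ± 4.08. Bmp7 was shared by otic cells, at 30.2 ± 0.887, and ectoderm, at 27.9 ± 7.63, whose libraries overlapped. Smad7 likewise lay at 46.4 ± 1.76 in otic cells and 49.6 ± 4.81 in ectoderm, and Smad6 at 9.37 ± 0.0252 and 10.6 ± 3.16.

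Gdf6, a BMP-family growth factor, was highest in otic cells of controls, at 3.67 ± 0.625 CPM, with no overlap with ectoderm at 1.29 ± 0.514. It was listed at 0 in leukocyte-like cells and in both neural tube classes. Bmper, a secreted BMP-binding protein, was also highest in otic cells, at 7.65 ± 0.149, but overlapped ectoderm at 6.18 ± 3.51. Bambi, a receptor-like protein without a kinase domain that dampens BMP signals, was highest among the 8 in ectoderm, at 90.2 ± 35.95, and neural tube progenitors, at 86.8 ± 31.6, ahead of otic cells at 55.8 ± 2.41.

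Nog encodes noggin, which binds BMP ligands and keeps them from their receptors. In controls it was highest in neural tube progenitors, at 27.6 ± 4.79 CPM, followed by neural tube neurons at 6.23 ± 2.22, epibranchial neurons at 3.27 ± 0.124 and the placodal neuron lineage at 1.60 ± 0.645. The otic class held 1.03 ± 0.348, which overlapped ectoderm at 1.49 ± 0.805 and mesenchyme at 0.412 ± 0.583. Bmp5 lay between 3.66 and 5.36 CPM on average in mesenchyme, ectoderm, epibranchial neurons and otic cells, where neighbouring classes overlapped. Bmp2 was highest in ectoderm, at 17.6 ± 10.47, and its mesenchyme mean of 5.48 ± 6.97 came mostly from control 2.

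**Figure D1:**
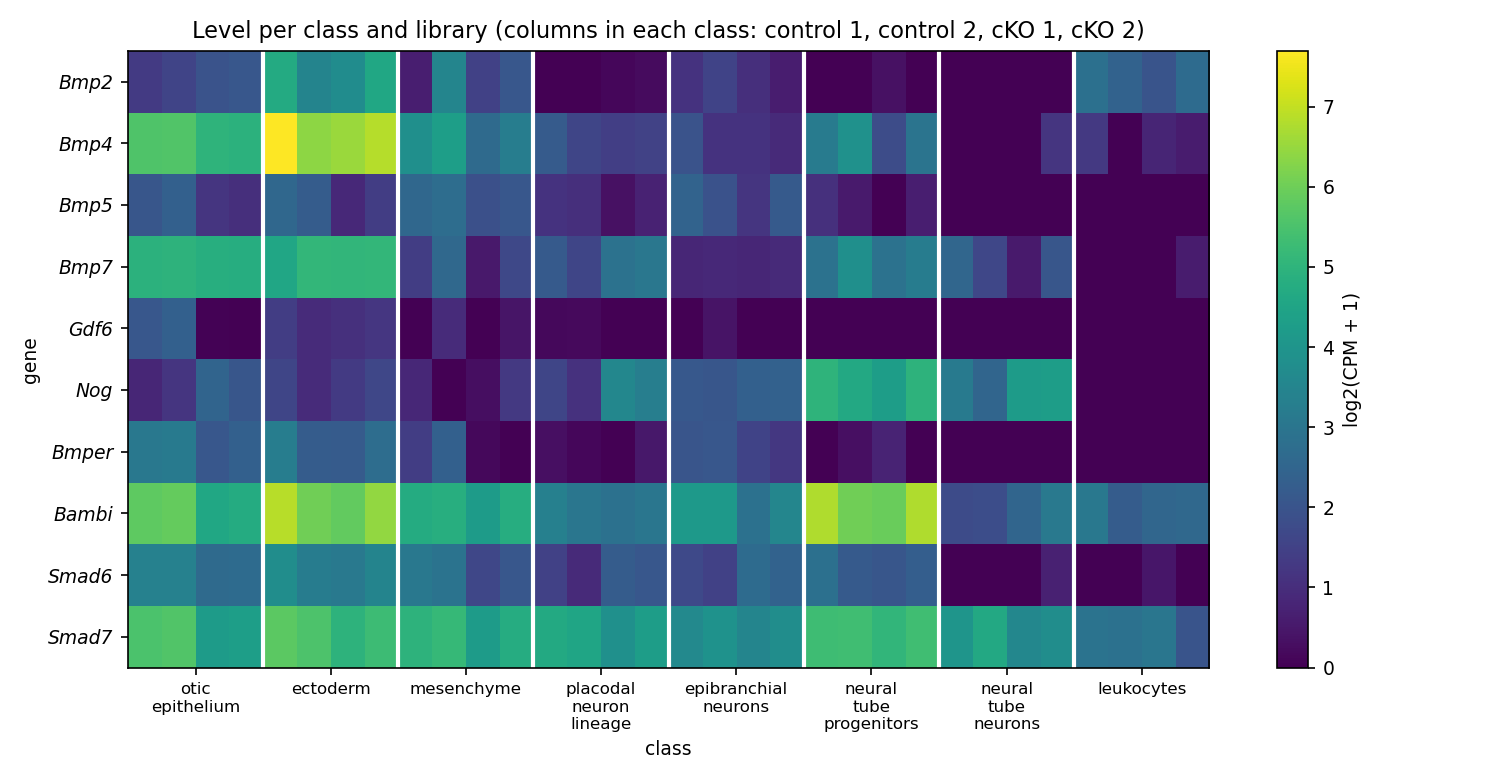
Rows are the 10 genes and columns the 4 libraries of 8 cell classes, coloured by log2(CPM + 1) of the summed UMIs. Bmp4 is brightest in ectoderm and then otic cells, Nog in neural tube progenitors, and Gdf6 shows colour mainly in the control otic columns.

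Across the 8 classes and 32 sums by class and library, the genes whose pattern was most like a member's were found by Pearson correlation of log2(CPM + 1) among 10294 genes. These correlations are descriptions, since sums of 1 library share its depth and a few high classes set them. Tanc1 (r = 0.96) and Ccdc80 (r = 0.96) were most like Bmp4, and Golm1 (r = 0.91) and Slit1 (r = 0.90) most like Nog. Msx2, a homeobox gene and BMP target, was second for Bambi (r = 0.91), after Col4a5 (r = 0.92). For Gdf6 the highest correlation was 0.76, with Capn6.

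Within control otic epithelium the members occupied different clusters. Clusters 10 and 12, led by Aldh1a2, Oc90, Mylk3, Sema3e and Gata2, held the highest Bmp4, at 117.3 and 107.3 CPM (control 1 and 2) in cluster 10 and 130.9 and 129.4 in cluster 12. The same clusters had 98.7 to 106.7 and 92.6 to 95.2 CPM of Bambi, and 16.3 to 19.9 CPM of Bmper. Cluster 13, led by the homeobox genes Otx1, Gsc and Otx2, was low in Bmp4, at 7.24 and 9.49, low in Bambi, at 9.99 and 10.3, and below 0.5 in Bmper. It held the highest control Nog, at 2.20 and 5.72 CPM.

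Gdf6 was found mainly in cluster 5, led by Rorb and Fam107a, at 9.75 and 14.8 CPM, and in cluster 4, led by Cntn5, Rorb and Gbx2, at 5.86 and 5.19. It stayed below 1 CPM in both libraries of clusters 10, 12, 7 and 19. The small cluster 19, led by Col14a1, Lrrtm1 and Rspo3, had 327.2 and 305.4 CPM of Bambi with only 5.78 and 4.82 of Bmp4, and 32.0 and 24.5 of Bmper. Bmp7 was the most even ligand, from 21.7 to 53.0 CPM over all 7 control clusters. Smad6 and Smad7 also varied little by comparison, from 7.02 to 12.2 and from 22.3 to 62.1.

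**Figure D2:**
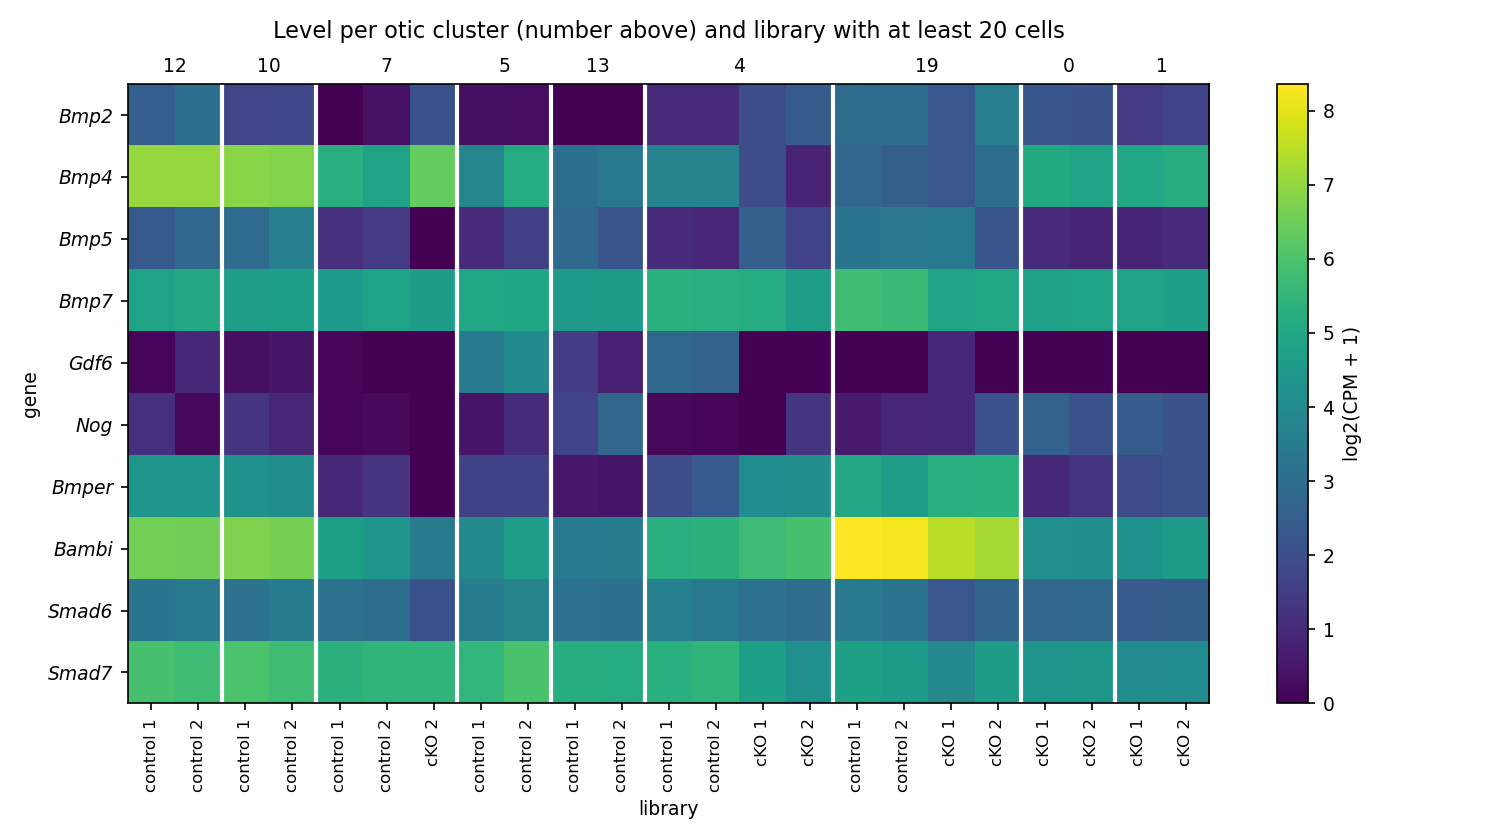
Rows are the 10 genes and columns the libraries with at least 20 cells in each otic cluster, numbered on top and coloured by log2(CPM + 1). Control columns differ sharply between clusters for Bmp4, Gdf6, Bambi and Bmper, whereas the cKO clusters 0 and 1 resemble each other.

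The genotypes did not share these clusters. Clusters 0 and 1 held 49.1% and 41.4% of cKO otic cells and 0.219% and 0.137% of control otic cells, whereas clusters 10, 12, 5, 7 and 13 together with 4 and 19 held nearly all control cells. A class value therefore sets the whole control epithelium against an epithelium of other clusters. In clusters 0 and 1 Bmp4 lay between 28.8 and 35.8 CPM, below the control clusters 10 and 12 and above cluster 13. Bambi was at 17.1 to 22.5 CPM and Gdf6 had no UMI in either cluster of either cKO library.

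Over the otic class as a whole, 9 of the 10 genes passed the test between genotypes, 2 higher and 7 lower in the cKO. Of all 15176 genes tested in this class, 41.8% passed, 21.5% higher and 20.3% lower. The median log2 change of the 10 genes was -0.75, against -0.02 for all genes tested. Values below are CPM scaled by TMM factors, and tests are edgeR's quasi-likelihood test on library sums with Benjamini-Hochberg adjustment over all genes.

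Among the ligands, Gdf6 fell furthest in otic cells. Controls 1 and 2 had 213 and 212 UMIs of it, cKO 1 had 1 and cKO 2 had none, a level 411.7-fold higher in controls by the pooled counts (95% exact counting interval 73.5 to 16299). The edgeR adjusted p was 1.71e-05. The gene lies on chromosome 4 at 9844372 to 9862345 (GENCODE vM21, mm10).

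Bmp5 was at 3.04 and 3.85 CPM in controls and 1.37 and 1.10 in the cKO, a log2 change of -1.48 ± 0.20 (SE, edgeR adjusted p = 0.000926). Bmp4 was at 44.9 and 44.6 against 33.4 and 31.6, a smaller fall of -0.46 ± 0.07 (edgeR adjusted p = 0.00129). Bmp2 rose, from 1.43 and 1.88 to 3.08 and 3.44 CPM (log2 change 0.98 ± 0.19, edgeR adjusted p = 0.00385). The libraries of the 2 genotypes did not overlap for any of these 3 ligands. With 2 libraries a side, the smallest exact permutation p for such a separation is 0.333. The share of all genes that separated was not counted.

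Bmp7 was the ligand that did not pass. Its otic level was 28.2 and 28.7 CPM in controls and 29.3 and 28.1 in the cKO, overlapping, with a log2 change of 0.01 ± 0.07 (edgeR adjusted p = 0.898).

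The 2 extracellular regulators moved in opposite directions. Nog rose from 0.753 and 1.19 CPM to 4.89 and 3.38, a log2 change of 2.07 ± 0.26 (edgeR adjusted p = 0.000671). Bmper fell from 7.21 and 7.22 to 3.48 and 4.34, a log2 change of -0.87 ± 0.13 (edgeR adjusted p = 0.00168). In cells thinned to 10000 UMIs each, the share with a Nog UMI was 1.18% and 1.11% in controls and 3.72% and 3.30% in the cKO, and without thinning it was 2.47%, 3.23%, 12.3% and 9.13%. The median depths were 29333 to 31255 UMIs per control cell and 34155 to 37581 per cKO cell. No leukocyte-like cell, the background class, had a Nog UMI after thinning, at median depths of 37492 to 51387, but these were only 40 to 53 cells per library, so that shares of up to 5.66% to 7.50% are allowed by a count of 0.

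The 3 intracellular and membrane inhibitors all fell. Smad7, which blocks receptor signalling of both the BMP and the TGF-beta branch, was at 43.1 and 44.4 CPM in controls and 19.1 and 19.9 in the cKO, a log2 change of -1.16 ± 0.07 (edgeR adjusted p = 1.87e-05). Bambi went from 51.7 and 53.6 to 24.8 and 27.0, a log2 change of -1.02 ± 0.07 (edgeR adjusted p = 4.3e-05). Smad6, the inhibitory SMAD more selective for BMP signals, went from 8.93 and 8.74 to 5.64 and 5.77, a log2 change of -0.63 ± 0.10 (edgeR adjusted p = 0.00211). Control and cKO libraries did not overlap for any of them, with the same limit of 2 libraries a side. The share of all genes that separated in this way was not counted. The share of thinned otic cells with a Smad7 UMI was 35.5% and 35.3% in controls and 15.7% and 16.7% in the cKO (67.1%, 65.3%, 42.9% and 40.9% without thinning).

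The summed level of 13 mesenchyme markers in the otic class was 72.7 and 71.2 CPM in controls and 155.3 and 123.0 in the cKO, with Foxc2 at 0 in cKO 1. This list includes Prrx2, a leading gene of cKO clusters with otic markers described below. The 8 neural crest or glia markers, which share Sox10 with the otic list, summed to 231.1 and 252.6 in controls and 112.2 and 129.7 in the cKO. Foxd3 was at 0 in control 1 and cKO 2. The 8 epibranchial markers summed to 48.1 and 60.9 against 23.5 and 22.7, with Hand2 at 0 throughout. The 13 neural tube progenitor markers summed to 209.5 and 180.7 in controls and 149.7 and 154.5 in the cKO, with Egr2 at 0 in 3 libraries. The 14 otic markers themselves, none of them at 0, summed to 2248 and 2418 in controls and 1647 and 1671 in the cKO. Their part in the changes was not tested.

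**Figure D3:**
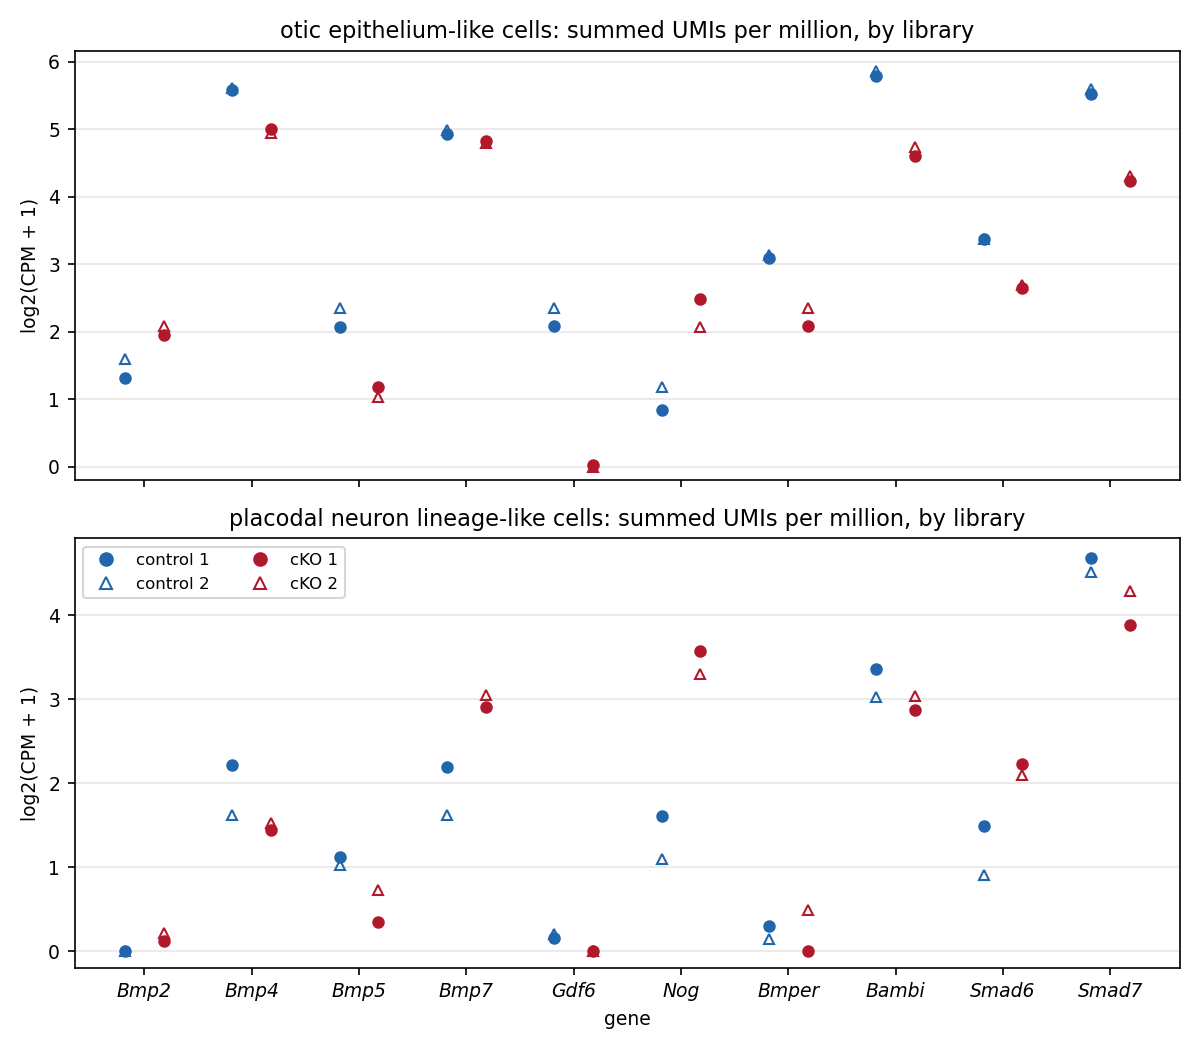
Each point is 1 library, with log2(CPM + 1) of summed UMIs on the vertical axis and the 10 genes on the horizontal axis, for otic cells on top and placodal neuron lineage cells at the bottom. CPM here are not scaled by TMM factors. In otic cells the red cKO points lie clearly apart from the blue control points for every gene but Bmp7. Its points lie close together, the controls slightly higher at this scaling (mean 30.2 against 27.0 CPM).

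The cKO otic cells were not uniform. At a finer clustering (resolution 2), 2 clusters led by Spp1, Prrx2 and Fgf15, numbers 3 and 6, consisted almost wholly of cKO cells (222 and 367 cells from cKO 1 and 2 in cluster 3, 245 and 295 in cluster 6, and at most 1 cell from either control library). They had 66.5 and 76.3 CPM of Bmp4 in cluster 3 and 69.2 and 82.6 in cluster 6. The other large cKO clusters, numbers 0, 5 and 9, led by Sp5, Napsa or Sfrp2, had 3.57 to 8.39 CPM of Bmp4 in every cKO library.

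Nog followed the same division. It was at 8.36 and 6.09 CPM in cluster 3 and 10.4 and 7.76 in cluster 6, but at 0.829 to 1.86 in clusters 0, 5 and 9. In control epithelium at this resolution, the clusters highest in Bmp4, numbers 4 and 7 with 112.7 to 128.8 CPM, had 0.131 to 1.47 CPM of Nog. Clusters 19 and 35, led by Otx1, Otx2 and Gsc, had 6.96 to 10.98 CPM of Bmp4. Nog was at 3.49 and 3.77 CPM in cluster 35 (control 1 and 2) and at 1.46 and 6.76 in cluster 19. In control 2 the clusters highest in Nog, 19 and 35, were therefore not those highest in Bmp4, 4 and 7. Cluster 15 of control 2, led by Rorb, came next for both genes, with 2.24 CPM of Nog and 50.7 of Bmp4. In control 1 cluster 19 had no more Nog than the Bmp4-high cluster 4, at 1.47, and only cluster 35 stood above it. In both cKO libraries the same clusters, 3 and 6, were highest in both genes. These are descriptions of clusters with no test.

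**Figure D4:**
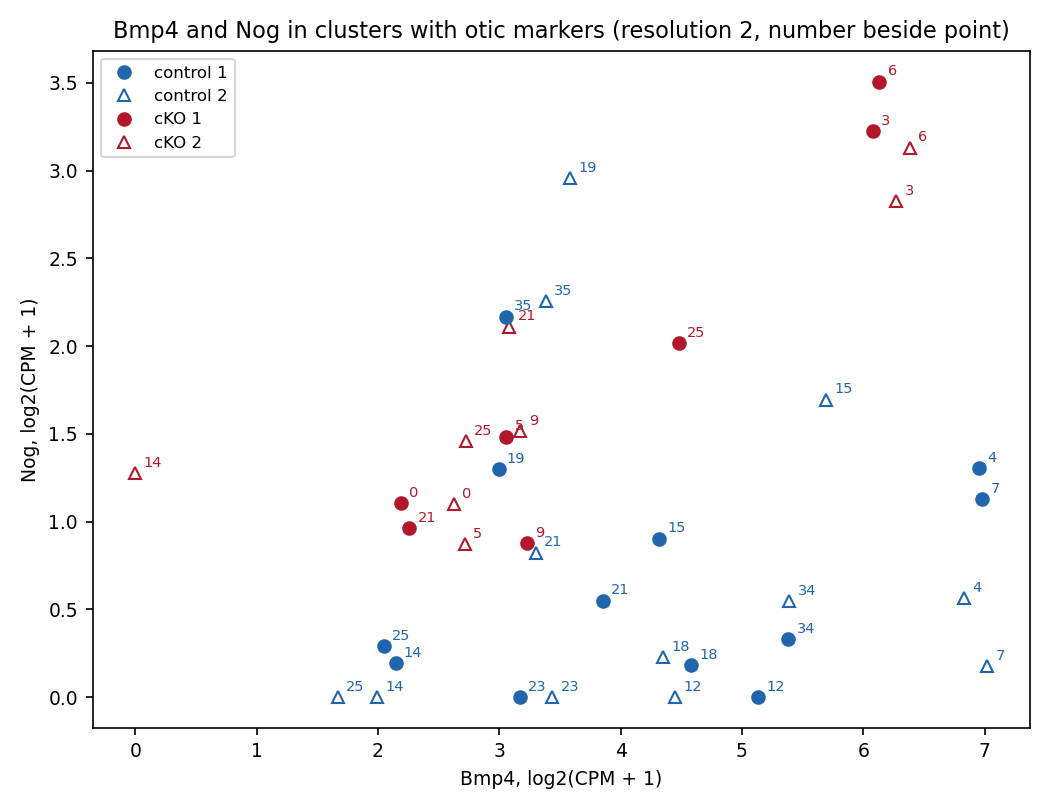
Each point is 1 cluster with otic markers (resolution 2, numbered) in 1 library with at least 20 cells, with log2(CPM + 1) of Bmp4 across and of Nog upwards. The cKO clusters 3 and 6 lie at the upper right, high in both genes, where no control point falls.

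In single cells the libraries were less uniform. Of thinned otic cells with a Nog UMI, 16 of 40 in cKO 1 and 28 of 64 in cKO 2 also had a Bmp4 UMI, 40% (95% exact interval 24.9 to 56.7) and 43.8% (31.4 to 56.7). Among all otic cells of these libraries 14.98% and 13.2% had a Bmp4 UMI. In control 1 it was 9 of 23 cells with a Nog UMI, 39.1% (19.7 to 61.5), and in control 2 it was 2 of 18, 11.1% (1.38 to 34.7), against 17.1% and 18.0% of all otic cells. The 2 control libraries differed from each other here and rested on few cells. Intervals cover counting error only.

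The naming of clusters decided the Nog result at this resolution. Prrx2 is on the list of mesenchyme markers, and clusters 3 and 6 were left unnamed for it at resolution 2. Without them, Nog changed by 0.55 on the log2 scale (edgeR adjusted p = 0.133) and Bmp7 by 0.21 (edgeR adjusted p = 0.0484). With clusters left unnamed only for their leading genes counted by their markers, an alternative added after the data were seen, Nog changed by 2.17 (edgeR adjusted p = 0.000571) and Bmp7 by -0.02 (edgeR adjusted p = 0.868). Clusters 3 and 6 also held most cKO Bmp4, with 485 and 667 UMIs in cKO 1 and 878 and 926 in cKO 2. The whole otic class at resolution 1 had 1343 and 2121. The size of the otic fall of Bmp4 therefore also depends on whether these clusters are counted.

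Genotypes could be compared inside 2 otic clusters at resolution 1, those with 20 or more cells in each of the 4 libraries. Cluster 4 (28 and 70 cKO cells) showed 6 of 9 tested members changed, 3 higher and 3 lower, where 15.7% of all genes passed, 7.98% higher and 7.68% lower. Bmp4 fell from 12.3 and 12.3 CPM to 2.94 and 0.748 (log2 change -3.05 ± 0.44, edgeR adjusted p = 0.000489). Gdf6 had 88 and 54 UMIs in controls and none in the cKO, at least 7.03-fold lower against a floor of 3 counts over the cKO libraries. Smad7 fell from 38.4 and 42.9 to 25.5 and 17.9 (log2 change -0.996 ± 0.18, edgeR adjusted p = 0.00248).

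Bmper and Bambi in cluster 4 went against their class values. Bmper rose from 2.89 and 4.28 CPM to 15.7 and 17.2, a log2 change of 2.21 ± 0.29 (edgeR adjusted p = 0.000217). Bambi rose from 37.5 and 40.01 to 52.0 and 61.7, a log2 change of 0.59 ± 0.13 (edgeR adjusted p = 0.00813). Bmp2 rose from 0.987 and 1.05 to 2.94 and 4.49, a log2 change of 1.86 ± 0.47 (edgeR adjusted p = 0.0171). The call for Bmper held with each library left out in turn. Without cKO 2, the calls for Bmp4, Gdf6, Smad7, Bambi and Bmp2 were lost, with edgeR adjusted p of 0.0553, 0.0531, 0.153, 0.285 and 0.449, and that for Bmp2 was also lost without control 1 (0.278) or control 2 (0.285). Without control 1 the edgeR adjusted p for Bambi was 0.0637. DESeq2 did not call Bmp2 or Bambi (adjusted p = 0.256 and 0.113). The finer cluster 25 (resolution 2, 34 and 69 cKO cells) shared the leading genes Gbx2, Snx7, Slc30a4, Lhfp and Aldh1a1 with cluster 4, but not Rorb. Unscaled Bambi was lower in its cKO cells, at 74.3 and 89.4 CPM against 66.2 and 62.6. Bmp4 was higher, at 3.13 and 2.18 against 21.3 and 5.598, and Gdf6 had no UMI in any library. Bmper was higher and Smad7 lower, as in cluster 4, and Bmp2 overlapped. The part of cell makeup in the cluster 4 changes was not tested.

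In cluster 19 (34 and 87 cKO cells) 2 of 8 tested members passed, both lower, where 11.1% of all genes passed, 5.94% higher and 5.18% lower. Bambi, at its otic maximum here, fell from 321 and 307 CPM to 182 and 154 (log2 change -0.91 ± 0.12, edgeR adjusted p = 0.000173). Bmp7 fell from 52.0 and 49.3 to 29.1 and 32.0 (log2 change -0.70 ± 0.18, edgeR adjusted p = 0.0215), a call lost without control 1 (0.0845) or cKO 2 (0.0535) and in DESeq2 (0.381). Bmper, at 31.4 and 24.6 CPM in controls and 39.8 and 40.6 in the cKO, did not pass (edgeR adjusted p = 0.104). The test of a difference between clusters 4 and 19 was not run.

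In the placodal neuron lineage-like class, cells that resemble neuroblasts and neurons of the cochleovestibular ganglion, 7 members could be tested. Of these 3 passed, all higher in the cKO, where 37.3% of 12894 genes passed and 18.3% were higher. The median log2 change of the 7 was -0.16, against -0.02 for all genes tested. Nog rose most, from 1.96 and 1.10 CPM to 11.5 and 9.13 (log2 change 2.71 ± 0.28, edgeR adjusted p = 0.000427). The share of thinned cells with a Nog UMI was 2.28% and 0.853% in controls and 9.15% and 8.01% in the cKO, and without thinning 4.74%, 2.64%, 20.6% and 15.1%.

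Bmp7 rose from 3.41 and 2.00 CPM to 6.82 and 7.52 in these neurons (log2 change 1.39 ± 0.27, edgeR adjusted p = 0.00542). Smad6 rose from 1.74 and 0.852 to 3.88 and 3.38 (log2 change 1.46 ± 0.35, edgeR adjusted p = 0.0138), a call lost without cKO 1 (0.0519). Smad7 was at 23.6 and 21.1 in controls and 14.4 and 19.3 in the cKO (edgeR adjusted p = 0.0725) and passed without control 2 (0.0331), without cKO 2 (0.0286) and without doublet removal (0.0340). Bambi was at 8.84 and 6.91 against 6.63 and 7.44 (edgeR adjusted p = 0.546), overlapping. Bmp4 was at 3.47 and 2.00 against 1.80 and 1.94 (0.261), and Bmp5 at 1.12 and 1.00 against 0.284 and 0.676 (0.106). Bmp2, Gdf6 and Bmper had at most 5 UMIs in any library and were not tested.

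Here too the genotypes drew on different clusters. Cluster 2, whose leading genes include Actc1, Bhlhe22, Insm1 and Neurod1, made up 46.9% of the class in controls and 65.5% in the cKO. Cluster 18, whose leading genes include Neurog1, Snai2 and Dll1, held 8.57% and 28.1%, and cluster 6, led by Pou4f1 and Ntrk3, held 44.5% and 6.36%. The class's own 13 markers, none at 0, summed to 5830 and 6838 CPM in controls and 3245 and 3248 in the cKO. The 8 epibranchial markers were at 680.1 and 810.9 against 363.0 and 276.1, and the 10 neural tube neuron markers at 1731 and 2265 against 907.5 and 909.2. The summed levels of the otic, ectoderm and pharyngeal endoderm lists were higher in the cKO, but not every gene in them was. The 14 otic markers, none at 0, summed to 567.8 and 506.7 against 668.1 and 702.5. The 11 ectoderm genes, which share Epcam with the otic list, were at 160.7 and 115.3 against 334.9 and 350.5, Krt14 being at 0 in all 4 libraries. The 10 pharyngeal endoderm genes, which share Epcam and Cldn6 with the otic list, were at 131.0 and 85.2 against 257.7 and 282.5. Of these, Foxa2, Foxa1, Pax9 and Nkx2-3 were at 0 in all 4 libraries. Sox17 and Shh were at 0 in both cKO libraries but in neither control library. The part of these markers in the results was not tested.

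Fits within clusters 2 and 18, added after the data were seen, gave the same call for Nog. In cluster 2 it rose from 1.79 and 1.37 CPM to 13.7 and 9.32 (log2 change 2.75 ± 0.28, edgeR adjusted p = 4.79e-05). In cluster 18 it rose from 3.02 and 0 to 7.74 and 8.97 (log2 change 2.07 ± 0.56, edgeR adjusted p = 0.015). Bmp7 and Smad6 did not pass in either cluster. Bmp7 changed by 0.62 ± 0.33 in cluster 2 and 0.19 ± 0.27 in cluster 18, with edgeR adjusted p of 0.187 and 0.679. Smad6 changed by 0.84 ± 0.33 and 0.35 ± 0.44 (0.0801 and 0.645). The unscaled Bmp7 level was higher in cluster 18, at 15.04 to 19.7 CPM in all 4 libraries, than in cluster 2, at 1.76 to 3.65.

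Smad7 fell inside both neuron clusters. It went from 26.0 and 25.9 CPM to 14.5 and 20.4 in cluster 2 (log2 change -0.57 ± 0.15, edgeR adjusted p = 0.0183) and from 39.9 and 38.6 to 15.9 and 17.9 in cluster 18 (log2 change -1.19 ± 0.21, edgeR adjusted p = 0.000678). Bambi fell in cluster 2, from 9.52 and 8.21 to 5.54 and 5.89 (log2 change -0.63 ± 0.20, edgeR adjusted p = 0.0347). In cluster 2, 3 of 6 tested members passed, where 28.2% of all genes did, and in cluster 18 it was 2 of 5, where 14.8% did, 7.96% higher and 6.88% lower.

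The otic and neuron responses were then set against each other in 1 fit, with the library as a block. The genotype effect differed between the classes for 4 members, Bmp7, Bambi, Smad6 and Smad7, each lower in otic cells relative to neurons, where 15.8% of 15163 genes passed 7.84% with a difference above 0 and 7.99% below. The otic minus neuron difference in log2 change was -1.43 ± 0.23 for Bmp7 (edgeR adjusted p = 0.0021) and -2.14 ± 0.32 for Smad6 (edgeR adjusted p = 0.00119). It was -0.89 ± 0.18 for Bambi (edgeR adjusted p = 0.00614) and -0.79 ± 0.14 for Smad7 (edgeR adjusted p = 0.00307), the last lost without cKO 2 (0.0522). For Nog the difference was -0.71 ± 0.39 (edgeR adjusted p = 0.258), so the rises in the 2 classes were not shown to differ. Without control 1 it was -1.44 (edgeR adjusted p = 0.00960), and at resolution 2, with the clusters 3 and 6 described above left out, -1.74 (0.0447).

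In epibranchial neuron-like cells, 2 of 8 tested members passed, where 24.8% of 12814 genes did. Bambi fell from 16.4 and 16.2 CPM to 6.60 and 10.9 (log2 change -0.86 ± 0.22, edgeR adjusted p = 0.0241), and Smad6 rose from 2.16 and 1.74 to 5.77 and 4.45 (log2 change 1.32 ± 0.29, edgeR adjusted p = 0.0155). Both calls were lost without control 1 (0.121 and 0.0794) or control 2 (0.103 and 0.1096), and that for Smad6 in DESeq2 (0.0623). Nog, at 3.23 and 3.07 against 4.40 and 4.36, did not pass (edgeR adjusted p = 0.204), although its libraries did not overlap. Cluster 9, led by Neurod4, Neurog2 and Phox2a, made up 39.9% of this class in controls and 66.3% in the cKO, and cluster 11, led by Prph and Ret, the remainder. The 11 ectoderm markers in this class summed to 113.2 and 75.5 CPM in controls and 320.8 and 274.8 in the cKO, with Krt14 at 0 throughout, and the 13 mesenchyme markers to 64.9 and 50.2 against 205.5 and 139.6, with Dcn at 0 in 3 libraries. Their part in the changes of Smad6, Bambi and the target genes of this class was not tested.

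Ectoderm-like and mesenchyme-like cells gave 1 call each. In ectoderm, Bmp5 fell from 4.81 and 3.66 CPM to 0.879 and 1.68 (log2 change -1.73 ± 0.45, edgeR adjusted p = 0.0466), 1 of 9 tested members where 5.73% of genes passed, 2.92% higher and 2.82% lower. It rested on 24, 4, 7 and 10 UMIs, and the call was lost with any 1 library left out (edgeR adjusted p from 0.0525 to 0.414), without doublet removal (0.0720) or with a 5% limit on mitochondrial UMIs (0.0912). Bmp4 in ectoderm ranged from 82.4 to 201 CPM in controls and from 94.3 to 117 in the cKO, overlapping. Ectoderm of control 2 came from 49 cells, and without that library Bmp4 changed by -0.92 (edgeR adjusted p = 0.0012) and Bmp7 by 0.62 (0.0432).

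In mesenchyme, Bmp4 fell from 12.9 and 17.9 CPM to 5.66 and 8.95 (log2 change -1.18 ± 0.28, edgeR adjusted p = 0.0303), 1 of 6 tested members where 6.03% of genes passed, 3.16% higher and 2.87% lower. The call was lost without control 2 (0.125) or cKO 1 (0.181), or without doublet removal (0.0610). Bmper had 6 and 18 UMIs in controls and 1 and 0 in the cKO, 35.4-fold higher in controls by pooled counts (95% exact counting interval 5.77 to 1454), and was too low to be tested. Bmp2 in mesenchyme was at 0.538 and 9.81 CPM in the 2 control libraries, which differed by more than the genotypes.

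**Figure D5:**
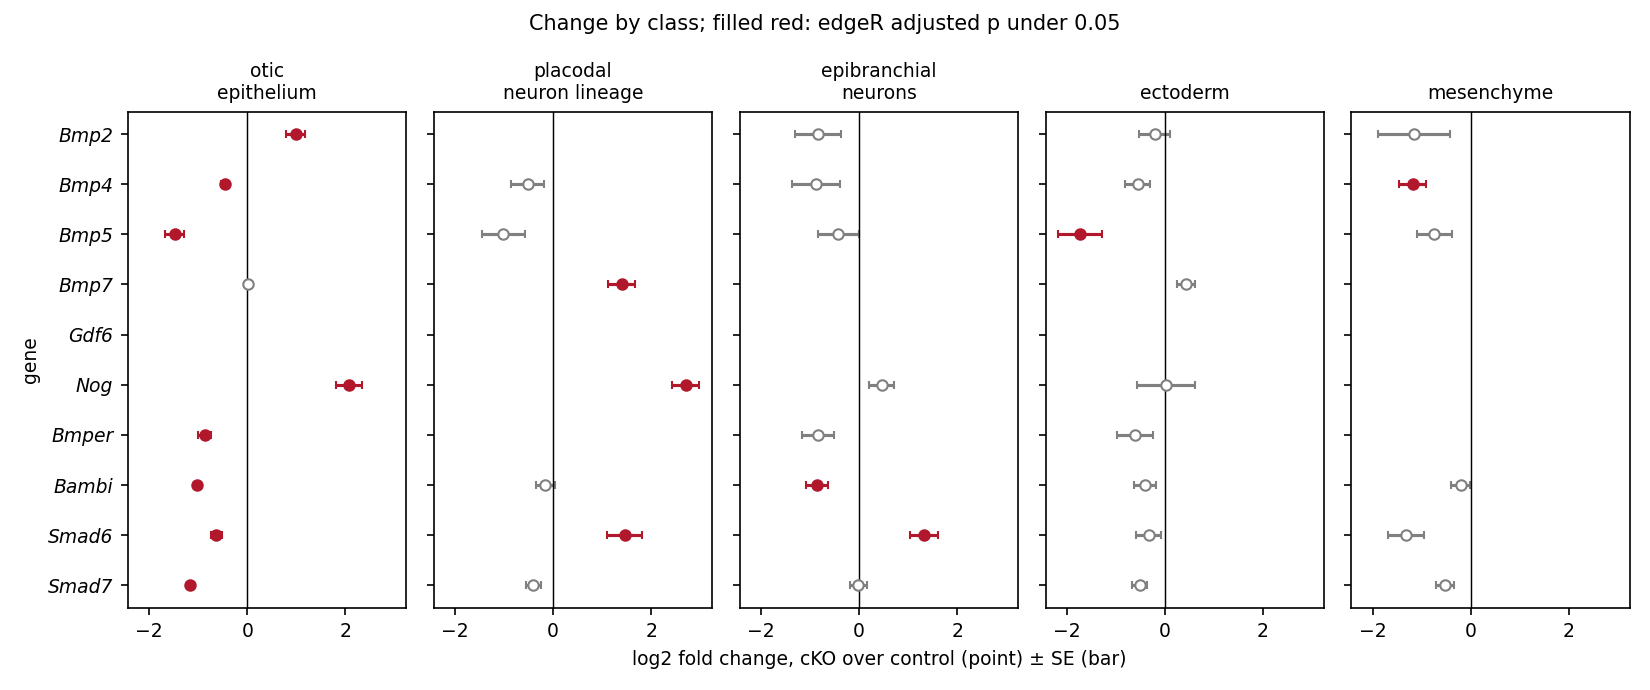
Points are log2 fold changes, cKO over control, with bars of 1 SE, for the members tested in 5 classes, and filled red points have an edgeR adjusted p under 0.05. Gdf6, with 1 UMI in the cKO otic class, is left out. Otic cells show 8 filled points, and Smad6 stands left of 0 in otic cells and right of 0 in both neuron classes.

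The other genes of the pathway were counted from a list of 58, by role. In otic cells, BMP target genes mostly fell, 10 of 12 lower and 1 higher, with a median log2 change of -0.53, where 20.3% of all genes were lower and 21.5% higher. Gata2 fell most, from 18.0 and 18.6 CPM to 2.26 and 2.99 (log2 change -2.77 ± 0.13, edgeR adjusted p = 6.24e-06), followed by Gata3 at -1.34 ± 0.07 (edgeR adjusted p = 7.05e-06) and Msx2 at -0.94 ± 0.09 (edgeR adjusted p = 0.000174). The helix-loop-helix inhibitors Id1, Id2, Id3 and Id4 were lower by 0.41 to 0.72 on the log2 scale. Hey1, also a Notch target, was the gene that rose, from 30.9 and 31.2 to 51.1 and 46.7 (edgeR adjusted p = 0.000379).

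Inside the 2 otic clusters with 20 or more cells in every library, 4 and 19, the targets did not mostly fall. These clusters held only 3.16% and 3.90% of cKO otic cells, and 17.2% and 4.46% of control otic cells. The part of cell makeup within them was not tested. In cluster 4, 5 of 12 rose and 3 fell, with a median of -0.01, where 7.98% of all genes were higher and 7.68% lower. Msx1 rose there from 23.5 and 20.3 CPM to 132.4 and 120.4 (log2 change 2.50 ± 0.12, edgeR adjusted p = 2.53e-08), and Msx2, Dlx5, Dlx6 and Atoh8 also rose. Msx1, Msx2, Dlx5 and Dlx6 had fallen in the class as a whole. Id2, Gata2 and Gata3 fell, as in the class, and Id1, at 339.6 and 311.1 against 338.4 and 340.3, did not pass (edgeR adjusted p = 0.71). In cluster 19, 2 of 11 tested targets rose, Id1 by 0.76 ± 0.18 (edgeR adjusted p = 0.0156) and Id3 by 0.57 ± 0.13 (edgeR adjusted p = 0.0105), and 2 fell, Id4 and Msx2, where 5.94% of genes were higher and 5.18% lower.

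Of the other ligands, 3 of 10 were tested in otic cells and 2 fell. Bmp3, a ligand that opposes other BMPs, went from 3.39 and 5.58 CPM to 0.149 and 0.387 (log2 change -3.85 ± 0.37, edgeR adjusted p = 0.00019). Of 9 receptors and co-receptors tested, 5 fell and 2 rose, against 20.3% of all genes lower and 21.5% higher. The falls included the type II receptor Bmpr2, at -0.63 ± 0.07 (edgeR adjusted p = 0.000429), and the type I receptor Bmpr1a, at -0.42 ± 0.06 (edgeR adjusted p = 0.00146). Rgmb, a co-receptor, rose by 0.54 ± 0.11 (edgeR adjusted p = 0.00533). Of 8 SMADs and modulators 4 fell, among them the signalling SMAD gene Smad9, from 1.90 and 2.02 to 0.397 and 0.149 (log2 change -2.89 ± 0.36, edgeR adjusted p = 0.000608). Of 10 other antagonists and processing genes, 3 fell and 1 rose, near the 41.8% of all genes that passed in this class. Sostdc1 fell by 1.32 on the log2 scale (edgeR adjusted p = 0.00142) and Chrdl1 rose by 0.60 (edgeR adjusted p = 0.0201). Follistatin (Fst), at 11.1 and 32.9 CPM in controls and 28.7 and 48.7 in the cKO, overlapped and did not pass. Inside cluster 4, 2 of 7 tested genes of this role rose and 1 fell, where 7.98% of all genes were higher and 7.68% lower. Fst rose there from 20.7 and 47.7 to 79.5 and 171 (log2 change 2.03 ± 0.32, edgeR adjusted p = 0.000878), and Fstl1 rose by 0.90 (edgeR adjusted p = 0.00217). In cluster 19 Fst did not pass (edgeR adjusted p = 0.212).

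In the neuron lineage, 4 of 10 tested target genes rose and 1 fell, where 18.3% of all genes were higher. Id1 rose from 212 and 91.8 CPM to 522 and 605 (log2 change 1.89 ± 0.31, edgeR adjusted p = 0.00287) and Hey1 from 10.9 and 12.7 to 37.3 and 47.6 (log2 change 1.84 ± 0.15, edgeR adjusted p = 0.000135), while Id4 fell by 1.91 on the log2 scale (edgeR adjusted p = 0.00034). Of the antagonists, Chrdl1 fell by 2.08 on the log2 scale (edgeR adjusted p = 0.00173). Within neuron cluster 2, 2 of 10 tested targets rose, Id1 (log2 change 1.68 ± 0.20, edgeR adjusted p = 0.000155) and Hey1, and 1 fell, Id4. These counts were near the shares of all genes there, 14.8% higher and 13.4% lower. In neuron cluster 18, 1 of 8 tested targets rose, Hey1, and 2 fell, where 7.96% of all genes were higher and 6.88% lower. Id2 and Id3 fell there by 0.91 and 0.78 on the log2 scale (edgeR adjusted p = 0.00131 and 0.0189). Id1 did not pass, at 541.8 and 288.5 against 554.7 and 524.3 CPM (log2 change 0.37 ± 0.17, edgeR adjusted p = 0.16). In epibranchial neurons 6 of 10 tested targets rose and 2 fell, where 11.9% of genes were higher and 12.9% lower. The risers included Msx2, at 1.99 ± 0.31 (edgeR adjusted p = 0.00562), Msx1, at 1.89 ± 0.27 (edgeR adjusted p = 0.00459), and Id1, at 1.52 ± 0.15 (edgeR adjusted p = 0.00149). Whether the responses of these targets differ between the classes was not tested.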

How the data were processed

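Single-cell RNA was measured with the Chromium Next GEM 3′ v3.1 chemistry in 2 control and 2 cKO libraries. The deposited matrices hold raw UMI counts per gene and cell barcode, made by the authors with Cell Ranger, version 6.0.1 per the file headers and 3.1.0 per the submitters' processing notes, which also name FastQC 0.11.4, Seurat 4.1.0 and the build mm10. The 10 genes and all lists were chosen with earlier results of these data known.

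Cells with at least 1000 genes and at most 10% mitochondrial UMIs were used. Scrublet, in scanpy 1.11.5, called only 10 doublets in all by its automatic threshold, which was not used. The highest-scoring 0.8% per 1000 barcodes of each library were removed instead, 586 cells. Whether the automatic threshold had failed was not tested. Counts scaled to 10000 per cell, without the members and the 58 other pathway genes, gave 2000 variable genes, 30 components, a graph of 20 neighbours and leidenalg 0.10.2 clusters at resolution 1. Each cluster was named after the list with most markers at 10 CPM or more and 2 times the median cluster, with at least 3 markers and 40% of the list. It stayed unnamed with a median UMI count under that of its samples divided by 3 or when its 10 leading genes, found in 25% of its cells (a share set after seeing the clusters), held more markers of another class. Cluster 17 (373 cells), with otic markers, stayed unnamed for this reason. Names mean resemblance to markers.

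Raw counts were summed per class and library and tested with edgeR 4.0.16 under R 4.3.3 by its two-sided quasi-likelihood test (glmQLFit, glmQLFTest, prior count 1), after filterByExpr and TMM scaling, at a Benjamini-Hochberg threshold of 0.05. CPM in genotype comparisons are TMM-scaled, and levels across classes and clusters are not. Standard errors are the absolute log2 change over the square root of F. The fits were tested on simulated data. Alternatives were RLE factors, DESeq2 1.42.0, no count filter, each library left out, the replicate block, 5% mitochondrial UMIs, no doublet removal, resolutions 0.5 and 2, and clustering with the members kept. Replicate numbers did not pair the samples. With 2 libraries a side, the smallest exact permutation p is 0.333, so that test was not used. Named genes were all 10 members, called pathway genes by size of change within a role, and the most correlated genes. Bambi lies on chromosome 18, from which no sequence is shown, as does Smad7. Bmp4 and Bmp5 overlap genes annotated on the other strand, and whether strand was used in counting is not given in the sources used here. One other gene of the pathway list is not reported here.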

Additional observations from a re-analysis of the deposited data

Results flagged for a closer look

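The genotype effect differed between otic epithelium-like cells and the placodal neuron lineage for 4 of the 10 genes, by the interaction term of a fit over both classes. The otic minus neuron difference in log2 change was -1.43 for Bmp7, whose own change was 0.01 in otic cells and 1.39 in neurons. It was -2.14 for Smad6, which changed by -0.63 in otic cells and 1.46 in neurons, in opposite directions. It was -0.89 for Bambi, with changes of -1.02 and -0.16, and -0.79 for Smad7, with changes of -1.16 and -0.40. The cluster makeup of both classes differed between the genotypes, and its part in these differences was not tested.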

How the results depend on the processing

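In otic cells 9 of the 10 genes passed under every alternative run, including each library left out, although at resolution 2 Nog lost its call and Bmp7 gained one. In the neuron lineage the count of 3 ranged from 2 to 4, and the interaction count of 4 from 3 to 6. The smaller classes were less stable. In epibranchial neurons the count of 2 became 1 with DESeq2 and ranged from 0 to 3 with a library left out. In ectoderm the count of 1 became 4 without a count filter, 0 with a 5% mitochondrial limit and 0 without doublet removal, and ranged from 0 to 2 with a library left out. In mesenchyme the count of 1 became 4 without a count filter and 0 without doublet removal, and ranged from 0 to 3. In the otic clusters 4 and 19 together, the 8 calls became 5 with DESeq2 and ranged from 2 to 9. The causes were not tested. DESeq2 gave no adjusted p for members in ectoderm and mesenchyme, and the neuron class had no value at resolution 0.5, where its cluster stayed unnamed (4 calls with unnamed clusters counted by markers, an alternative chosen after seeing the data). Over all genes tested, calls ranged from 4286 to 7108 around 6347 in otic cells, 3058 to 5508 around 4811 in neurons, 684 to 4211 around 3176 in epibranchial neurons, 180 to 1367 around 686 in ectoderm, 335 to 1260 around 625 in mesenchyme, 571 to 2197 around 1843 in cluster 4 and 301 to 1666 around 1144 in cluster 19.

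Signs changed only for values that had not passed. Bmp7 in otic cells was -0.015 at resolution 0.5, -0.017 with the unnamed cluster 17 added and -0.017 at resolution 2 by markers (both added after seeing the data). Bambi in neurons was 0.11 at resolution 2 and 0.34 with members kept in clustering. Without doublet removal, Smad7 in epibranchial neurons was 0.0076, and the interaction values of Bmp4 and Bmper were -0.071 and 0.70. The Bmp4 interaction was -2.36 at resolution 2 (edgeR adjusted p = 0.0145) and -0.65 with members kept. With a library left out, log2 changes ranged from -0.015 to 0.027 for Bmp7 in otic cells, -0.33 to 0.029 for Bambi in neurons, and in epibranchial neurons -0.17 to 0.13 for Smad7 and -1.31 to 0.017 for Bmp5. In ectoderm they ranged from -0.63 to 0.81 for Bmp2, -0.92 to 0.35 for Bmp4, -0.70 to 0.17 for Bambi, -0.88 to 0.35 for Bmper, -0.50 to 0.14 for Smad6 and -0.18 to 0.85 for Nog. In mesenchyme the range was -1.98 to 1.80 for Bmp2 and -0.43 to 0.15 for Bambi. In cluster 19 it was -0.68 to 0.024 for Smad7, -0.74 to 0.67 for Bmp2, -0.38 to 0.46 for Bmp4 and -1.09 to 0.14 for Bmp5. For the interaction it was -0.37 to 0.40 for Bmp4, -1.44 to 0.015 for Nog, -1.01 to 0.46 for Bmp5 and -2.03 to 1.69 for Bmper.

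Libraries of the 2 genotypes share replicate numbers, but nothing says that they pair, and the correlations of same-numbered deviations lay between -0.0753 and 0.0443. With the replicate block, ectoderm had 4 calls and Nog there changed by -0.012, and the counts in otic cells (9), neurons (3), epibranchial neurons (2), mesenchyme (1) and the otic clusters (8) stayed as without it. With 2 libraries per genotype, low-count genes such as Gdf6 and Bmp2 outside the otic class could not be tested or rested on few UMIs.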

Other observations

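Nog was also read in neural tube neuron-like cells, which enter no genotype test above. It was at 7.80 and 4.66 CPM in controls and 17.7 and 18.3 in the cKO, from 13, 11, 38 and 29 UMIs, so the libraries of the 2 genotypes did not overlap. Both clusters of this class showed the same order. Cluster 20, led by En1 and Otp, had 1 Nog UMI in controls and 23 in the cKO, a 19.5-fold ratio (95% exact counting interval 3.17 to 804.8), and cluster 24, led by Robo3 and Lamp5, had 15.5 and 10.4 CPM in controls against 45.8 and 27.2 in the cKO. In neural tube progenitors the libraries overlapped, at 31.0 and 24.2 CPM in controls and 18.6 and 30.8 in the cKO, and Nog was highest in cluster 26, led by Ttr, Rspo1 and Wnt1, at 86.9 and 78.0 CPM in controls. These are values without a test, chosen after they were seen.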
